A study of Mus musculus with 5 samples.

Results

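The livers were those of male C57BL/6J mice that carried Rosa26mTmG and Col1a1-Cre, so that any cell in which the Col1a1 promoter had driven Cre was marked green, together with its descendants. Diseased mice received diethylnitrosamine (DEN, 10 mg per kg) at 2 weeks of age and a liquid Western diet with alcohol (WAD, 3.5% ethanol by volume) for 5 months from 6 weeks of age, whereas control mice received saline and chow. Non-parenchymal cells were sorted on vitamin A autofluorescence, a property of hepatic stellate cells, and on the green reporter, and 3 gates over the 2 conditions gave 5 droplet libraries of single-cell RNA. With 1 library per group there was no replicate of any condition, so no test was made and every interval below covers counting error only.

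The cells described here were 840 fibroblasts marked by Sfrp1 and C7, of 12599 barcodes in the VitA-Col1a1+ DEN+WAD and VitA-Col1a1- DEN+WAD libraries and of 24007 barcodes in the series. They were chosen by a rule on measured values, applied to each library by itself, that asked for 2000 or more UMIs (unique transcripts), 1 or more UMIs of at least 3 of the 6 genes Sfrp1, C7, Fmod, Dpep1, Lamc3 and Cilp, and no UMI of Pecam1, an endothelial adhesion molecule, or Ptprc, the pan-leukocyte CD45. The rule took 495 cells from the VitA-Col1a1+ DEN+WAD library and 345 from the VitA-Col1a1- DEN+WAD library. They were compared, within each library, with mesenchymal cells that had none of the 6 genes, 1076 and 2743 cells respectively, which carried 20 or more UMIs of Dcn, Col3a1 and Colec11 per 10000 and met the same limits on depth, Pecam1 and Ptprc. The VitA-Col1a1+ library of chow-fed mice, with 360 cells that met the rule and 105 comparison cells, is given beside them.

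Fibroblasts of the liver are connective tissue cells that lie around portal tracts and larger vessels and in the capsule, apart from the stellate cells of the sinusoids, which store retinoid esters. Both kinds of cell make collagens and can form scar, and the enzyme Lrat, which esterifies retinol, is a usual marker of the stellate lineage. Of the 6 rule genes, Sfrp1 is a secreted inhibitor of Wnt signalling, C7 a component of the complement membrane attack complex, Fmod a small leucine-rich proteoglycan that binds collagen, Dpep1 a membrane dipeptidase, Lamc3 a laminin chain and Cilp a matrix protein first known from cartilage.

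Promoters of 4 of the 6 rule genes were found in the RefSeq table used, C7, Cilp, Dpep1 and Fmod. C7, Dpep1 and Fmod are shown because these genes set which cells are described, as the 250 bases before the annotated start in GRCm38.p6, 5' to 3' along the gene, with matches on either strand to 5 motifs in capitals. The motifs were the TATA box TATAAA, the GATA motif AGATAA, the AP-1 motif TGACTCA and the E-boxes CAGCTG and CACGTG, none of which overlapped another in these windows. C7 lies at chr15:5063774-5064023 on the minus strand, Dpep1 at chr8:123185985-123186234 on the plus strand and Fmod at chr1:134037004-134037253 on the plus strand.
C7: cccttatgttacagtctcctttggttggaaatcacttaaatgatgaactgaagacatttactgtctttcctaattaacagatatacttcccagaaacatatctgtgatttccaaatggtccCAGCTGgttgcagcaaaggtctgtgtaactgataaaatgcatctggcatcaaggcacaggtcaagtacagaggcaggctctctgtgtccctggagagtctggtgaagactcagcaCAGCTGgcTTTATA
Dpep1: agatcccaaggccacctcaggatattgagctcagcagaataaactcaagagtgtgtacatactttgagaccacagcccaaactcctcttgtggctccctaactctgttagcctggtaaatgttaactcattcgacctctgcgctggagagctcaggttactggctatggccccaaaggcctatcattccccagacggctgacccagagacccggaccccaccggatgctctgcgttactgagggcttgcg
Fmod: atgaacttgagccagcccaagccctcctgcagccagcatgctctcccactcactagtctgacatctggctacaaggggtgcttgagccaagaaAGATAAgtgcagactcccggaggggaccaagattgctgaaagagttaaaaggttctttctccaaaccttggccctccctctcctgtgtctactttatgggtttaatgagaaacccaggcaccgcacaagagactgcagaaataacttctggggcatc
The C7 window held CAGCTG with its first base 129 and 14 bases before the start, and TATAAA on the opposite strand 6 bases before it. The Fmod window held AGATAA 157 bases before the start, and these letters in the Dpep1 window matched none of the 5 motifs. Of all 32851 promoter windows of this length, 13.0% held CAGCTG, 12.4% TATAAA, 9.99% AGATAA, 6.02% CACGTG and 4.46% TGACTCA. GC content was 43.2% for C7, 53.6% for Dpep1 and 51.2% for Fmod, against a median of 52.4% over all windows, and the C7 window held 0 CpG dinucleotides against a median of 6.

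The number of rule genes found per cell fell into a low and a high group in the VitA-Col1a1+ DEN+WAD library. Of its 2091 cells with 2000 UMIs and no Pecam1 or Ptprc, 1094 had none of the 6 genes, 381 had 1, 121 had 2, 50 had 3, 70 had 4, 182 had 5 and 193 had all 6. The VitA-Col1a1- DEN+WAD library had no second rise, with 3157 of 4314 such cells at 0 genes, 586 at 1, 226 at 2, 135 at 3, 70 at 4, 72 at 5 and 68 at 6. In chow the high group was the larger, with 123 of 596 cells at 5 genes and 143 at 6. Cells with exactly 3 rule genes, just inside the threshold, were 135 of the 345 selected cells in the VitA-Col1a1- gate, against 50 of 495 in VitA-Col1a1+ DEN+WAD and 35 of 360 in chow.

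**Figure D1:**
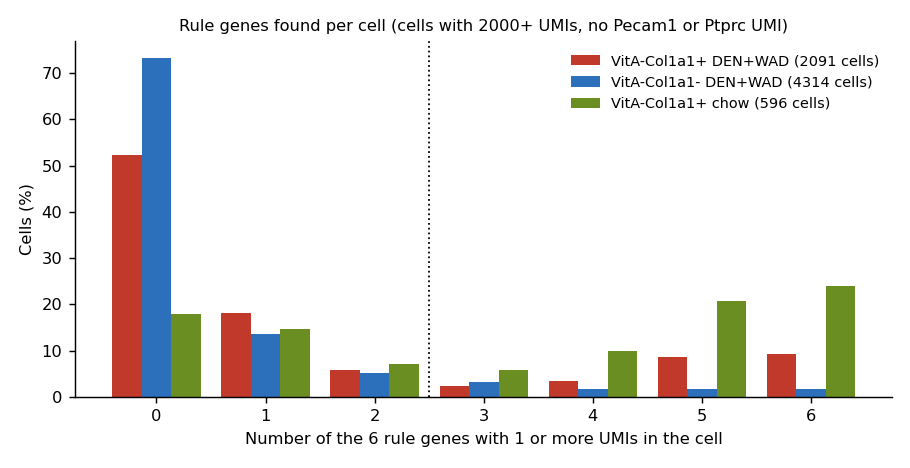
Share of cells (%) by the number of the 6 rule genes with 1 or more UMIs, for the 3 VitA- libraries, with the threshold of 3 genes as a dotted line. In the 2 VitA-Col1a1+ libraries the bars rise again at 5 and 6 genes, whereas in the VitA-Col1a1- library they stay low from 3 to 6.

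Cells that met the rule were 18.9% of the 2623 cells with 2000 UMIs in VitA-Col1a1+ DEN+WAD (Clopper-Pearson 95% interval 17.4 to 20.4%), 4.09% of 8431 in VitA-Col1a1- DEN+WAD (3.68 to 4.54%) and 55.6% of 647 in VitA-Col1a1+ chow (51.7 to 59.5%). These shares are shares of what each gate let through and not of the liver. A deeper cell has more chances to show a UMI of each gene. The cells with 5000 or more UMIs, 2572, 7323 and 643 in the same order, were therefore also thinned to 5000 UMIs. This gave 17.1%, 2.98% and 49.0%, shares that leave out the cells of lower depth. All 840 cells also passed the mesenchymal limit of the comparison cells, though the rule did not ask for it, and they made up 24.0%, 8.91% and 61.0% of the mesenchymal cells of the 3 libraries.

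Depth differed between the classes and libraries. Median UMIs per cell were 21072 in the selected cells and 15988 in the comparison cells of VitA-Col1a1+ DEN+WAD, 12812 and 11442 in VitA-Col1a1- DEN+WAD, and 24155 and 20247 in chow. Selected cells held between 2633 and 65255 UMIs in the first library, 2100 and 33154 in the second and 2441 and 135909 in chow, with 5, 0 and 3 cells above 50000. By the file headers, the VitA-Col1a1- library came from Cell Ranger 6.1.2 and the others from 3.1.0, and 0.558% of the selected cells' UMIs fell on Gm42418 and AY036118, genes that overlap ribosomal RNA repeats, in VitA-Col1a1+ DEN+WAD against 2.16% in VitA-Col1a1- DEN+WAD and 2.21% in chow. Libraries shared at most 21 barcodes, 5 of them between the 2 VitA- DEN+WAD libraries, and no shared barcode was a selected cell in both.

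The rule genes themselves are given as a description only. Dpep1 was found in 488 of the 495 selected cells of VitA-Col1a1+ DEN+WAD and in 307 of 345 in VitA-Col1a1- DEN+WAD, with a median of 19 and 3 UMIs per cell. Fmod was found in 462 and 302 cells, C7 in 444 and 291, and Sfrp1 in 443 and 260. Lamc3 and Cilp were the least often found, in 403 and 258 cells of the first library and in 141 and 152 of the second. The selected cells held 93.3% of all Sfrp1 UMIs in the VitA-Col1a1+ DEN+WAD library and 73.4% in the VitA-Col1a1- library, where they held 4.37% of all UMIs. Sfrp1 lies on chromosome 8 at 23411502 to 23449632 on the plus strand and C7 on chromosome 15 at 4988762 to 5063740 on the minus strand of GRCm38, by GENCODE M21.

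The grouping was also seen in genes that the rule did not use. Among the mesenchymal cells of each library, the 15 nearest neighbours of each cell were found from 1500 variable genes without the rule's own, reduced to 30 components. In VitA-Col1a1+ DEN+WAD, 91.2% of the neighbours of a selected cell were on average selected cells, which were 24.0% of all, against 0.793% for the neighbours of the comparison cells. For VitA-Col1a1- DEN+WAD the values were 66.7% and 0.719%, with 8.91% of all cells selected, and in chow 96.6% and 1.59%, with 61.0% selected. Cells with exactly 3 rule genes had 43.5%, 38.9% and 76.4% selected neighbours, and cells with exactly 2 had 13.0%, 19.0% and 28.6%. In the VitA-Col1a1- library 43 of the 135 cells at exactly 3 genes had mostly selected neighbours.

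Against the comparison cells, the selected cells were high in the matrix inhibitor of calcification Mgp, complement C3, the Axl and Tyro3 ligand Gas6 and a set of fibroblast and elastic fibre genes, and low in stellate genes. Of 8560 genes at 10 or more CPM (UMIs per 1000000 UMIs summed over the cells of a class) in either class in VitA-Col1a1+ DEN+WAD, 483 (5.64%) were 2-fold or more higher and 325 (3.8%) 2-fold or more lower on the log2 scale with 5 CPM added to both. In VitA-Col1a1- DEN+WAD 430 of 8709 genes (4.94%) were higher and 323 (3.71%) lower, and in chow 428 of 8859 (4.83%) and 390 (4.4%). Of the 8172 genes measured in both DEN+WAD libraries, 305 were higher in both, 71.9% of the 424 higher in the VitA-Col1a1+ gate and 78.2% of the 390 higher in the VitA-Col1a1- gate, and 179 were lower in both, 60.9% of 294 and 70.8% of 253. Rbp4, the plasma carrier of retinol, was the 1 gene past 2-fold in opposite directions and is named because of that.

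Mgp was at 3896 CPM in the selected cells of VitA-Col1a1+ DEN+WAD and 62.6 in its comparison cells, at 5718 and 110.1 in VitA-Col1a1- DEN+WAD, and at 3565 and 119.4 in chow. These are ratios of 62.3 (95% interval 58.7 to 66.2), 51.9 (50.2 to 53.8) and 29.9 (26.3 to 34.0). C3, the central component of complement, was at 799.1 and 11.2 CPM, 791.9 and 40.1, and 898.5 and 3.41 in the same order. Its level in the selected cells was therefore close in the 3 libraries, while the comparison cells ran from 3.41 to 40.1 CPM. The value of 3.41 CPM in chow was 7 UMIs (1.37 to 7.03 CPM). After thinning to 2000 UMIs, C3 was found in 49.7% of selected cells of VitA-Col1a1+ DEN+WAD against 1.77% of comparison cells and 0.691% of endothelial cells, which should lack it and give the level of free RNA (cells with Pecam1 and 3 or more of 9 further endothelial genes that were not mesenchymal). The matching full-depth shares were 69.5%, 9.20% and 4.61%, at median depths of 21072, 15988 and 13638 UMIs. In VitA-Col1a1- DEN+WAD the thinned shares were 55.7%, 5.50% and 6.12%, so that C3 in the comparison cells there was not above free RNA.

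Fgl2, a secreted fibrinogen-like protein, was at 372.7 CPM in the selected against 2.31 in the comparison cells of VitA-Col1a1+ DEN+WAD, 314.6 against 4.63 in VitA-Col1a1- DEN+WAD and 285.7 against 4.39 in chow. Lbp, which binds bacterial lipopolysaccharide, was at 254.8 against 2.65 in VitA-Col1a1+ DEN+WAD and 168.1 against 3.22 in VitA-Col1a1- DEN+WAD. Serpinf1, the anti-angiogenic factor PEDF, was at 382.3 against 8.24 and 290.7 against 16.9. Each of these 3 genes was more than 10-fold higher in the selected than in the comparison cells of both DEN+WAD libraries.

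Gas6 was at 2859 CPM in the selected cells and 120.5 in the comparison cells of VitA-Col1a1+ DEN+WAD, a ratio of 23.7 (22.7 to 24.8). Gas6 in VitA-Col1a1- DEN+WAD stood at 1323 and 71.6, a ratio of 18.5 (17.6 to 19.4), and in chow at 2678 and 151.1, a ratio of 17.7 (15.8 to 19.9). Endothelial cells of the first library were at 327.8 CPM, between the 2 mesenchymal classes. The selected cells, 18.1% of the barcodes of that library, held 72.9% of its Gas6 UMIs. Elastic fibre genes were also among the highest ratios. Mfap4, a microfibril-associated protein, was at 1061 against 25.9 and 1210 against 32.6 in the 2 DEN+WAD libraries, and Fbln1, fibulin 1, at 814.3 against 20.7 and 667.7 against 45.3.

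Other genes with the largest ratios in VitA-Col1a1+ DEN+WAD included Fmo2, a flavin monooxygenase, at 1478 against 37.5 CPM, Cd34, a sialomucin of fibroblasts and endothelium, at 167.0 against 2.93, and the ion transport regulator Fxyd6 at 200.1 against 3.67. Cardiac troponin T, Tnnt2, the opioid precursor Penk and the matricellular gene Smoc1 were also among the 15. These last 3 were each lower in the selected cells of the VitA-Col1a1- gate. Tnnt2 was at 354.9 CPM in the selected cells of VitA-Col1a1+ DEN+WAD and 372.3 in those of chow, but at 23.2 in VitA-Col1a1- DEN+WAD. Penk was at 131.4, 46.8 and 13.4 CPM in the same cells, and Smoc1 at 122.1, 170.4 and 50.7. The 10 largest ratios of the VitA-Col1a1- library also held Mgp, Fgl2, Fmo2 and Mfap4, and added Itgbl1, an integrin-like matrix protein, at 221.0 against 3.64 CPM.

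The 4 haemoglobin genes Hbb-bs, Hba-a1, Hbb-bt and Hba-a2 were also among those 10, and 1 cell carried them. That cell held 9603 of the 9641 haemoglobin UMIs of the 345 selected cells and had 18699 UMIs in all, while the next highest held 2. Without it Hbb-bs stood at 5.66 CPM in the selected cells and 4.75 in the comparison cells. Spp1 had a like spread, with 643 of 885 UMIs in 1 selected cell of the same library.

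**Figure D2:**
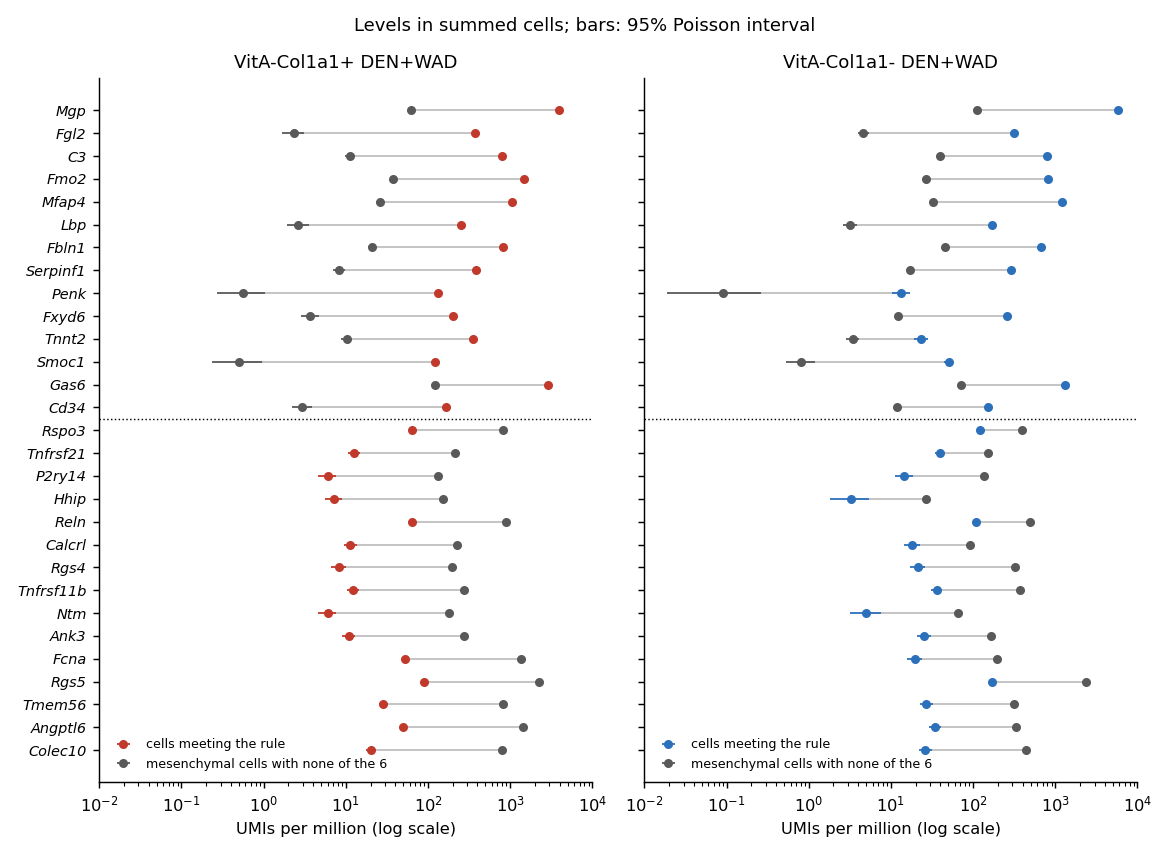
CPM (log axis) of genes named from the 15 largest and the 15 smallest ratios in VitA-Col1a1+ DEN+WAD, in the selected cells (coloured) and the comparison cells (grey) of both DEN+WAD libraries, with 95% Poisson intervals. Above the dotted line the coloured points lie to the right in both libraries, below it to the left, and Tnnt2 and Penk are much lower in the VitA-Col1a1- library.

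Genes of the stellate list were low in the selected cells. Of its 20 genes, all measured, 15 were 2-fold or more lower and 0 higher in VitA-Col1a1+ DEN+WAD, with a median log2 ratio of -2.54 against -0.03 over all genes. In VitA-Col1a1- DEN+WAD 16 were lower and 0 higher, with a median of -1.66 against -0.01, and in chow 15 and 0, with a median of -2.07 against -0.04. Rgs5, a regulator of G protein signalling in pericytes, was at 88.5 CPM against 2223 in VitA-Col1a1+ DEN+WAD, 170.3 against 2337 in VitA-Col1a1- DEN+WAD and 22.1 against 2524 in chow. Colec10, a collectin, was at 20.1 against 784.3, 26.2 against 441.2 and 1.71 against 435.2. In shares of cells both were near free RNA. Rgs5 was found in 28.7% of selected and 29.0% of endothelial cells of VitA-Col1a1+ DEN+WAD, and Colec10 in 12.1% and 12.0%, so that these shares were not above background. The UMIs of Rgs5 were uneven, with 344 of 958 in the 50 cells with exactly 3 rule genes and 271 in the 70 cells with 4, and its level there was 285.6 and 178.3 CPM against 49.5 and 35.9 CPM with 5 and 6 rule genes.

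Lrat, in contrast, was above that background. It was at 98.0 CPM in the selected cells and 1127 in the comparison cells of VitA-Col1a1+ DEN+WAD, 11.5-fold lower (10.8 to 12.2), and at 12.0 in endothelial cells. Lrat in VitA-Col1a1- DEN+WAD stood at 318.3 against 943.1, 2.96-fold lower (2.81 to 3.12), with endothelial cells at 32.5, and in chow at 291.5 against 719.3, 2.47-fold lower (2.31 to 2.63), with endothelial cells at 12.6. Thinned to 2000 UMIs, it was found in 12.3% of the selected, 77.4% of the comparison and 2.995% of the endothelial cells of the first library, and in 38.8%, 72.8% and 6.12% of the second. At full depth 54.3% and 74.8% of the selected cells of the 2 DEN+WAD libraries had an Lrat UMI. Reln, the secreted glycoprotein reelin, was at 63.3 CPM against 887.4 in VitA-Col1a1+ DEN+WAD and 108.5 against 498.1 in VitA-Col1a1- DEN+WAD. There, 30.7% of selected and 5.99% of endothelial cells had a UMI of it. Cells with exactly 3 rule genes carried much of it, 340 of the 685 Reln UMIs of the selected cells in the first library and 332 of 501 in the second. Its level in these cells was 282.3 and 185.7 CPM, against 20.4 to 69.1 and 24.7 to 81.5 CPM in those with 4 to 6 rule genes.

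The remaining genes with the smallest ratios in VitA-Col1a1+ DEN+WAD were Angptl6, Tmem56, Fcna (ficolin A, a lectin that starts complement), Ank3, Ntm, Tnfrsf11b (the decoy receptor osteoprotegerin), Rgs4, Calcrl, Hhip (an inhibitor of hedgehog signalling), P2ry14, Tnfrsf21 and Rspo3, an enhancer of Wnt signalling. Their log2 ratios ran from -4.72 for Angptl6 to -3.59 for Rspo3, and in VitA-Col1a1- DEN+WAD from -3.66 for Rgs4 to -1.65 for Rspo3. All 15 lowest genes of the first library were thus 2-fold or more lower in the second as well. For Hhip the log2 ratio in the second library was -0.87, within 2-fold, when both classes were held to 10000 to 40000 UMIs.

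Levels differed with the number of rule genes found, though not at every step in the same direction. Lrat was at 1127 CPM in mesenchymal cells of VitA-Col1a1+ DEN+WAD with none of the 6 genes, 741.4 with 1, 448.2 with 2, 238.3 with 3, 143.5 with 4, 81.3 with 5 and 57.3 with 6. The same steps in VitA-Col1a1- DEN+WAD read 943.1, 716.1, 533.0, 435.2, 326.6, 204.1 and 207.2. At each number of rule genes from 2 to 6 Lrat was thus higher in VitA-Col1a1- DEN+WAD than in VitA-Col1a1+ DEN+WAD. In chow the steps read 719.3, 587.7, 448.7, 578.2, 563.3, 247.9 and 165.0, so that Lrat was higher with 3 rule genes than with 2. Mgp went from 62.6 through 270.4 and 755.4 to 2101, 4251, 3608 and 4537 CPM in VitA-Col1a1+ DEN+WAD. Cyp1b1, a cytochrome P450 that acts on steroids and fatty acids, was at 19.2, 48.4, 94.2, 97.1, 97.4, 79.2 and 73.5 in VitA-Col1a1+ DEN+WAD. It was thus about level from 2 rule genes on in that library. With 2 to 6 genes it was at 97.5, 118.6, 181.6, 139.7 and 153.9 in VitA-Col1a1- DEN+WAD. In chow it was at 54.7, 113.3, 79.6, 93.4 and 91.8.

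**Figure D3:**
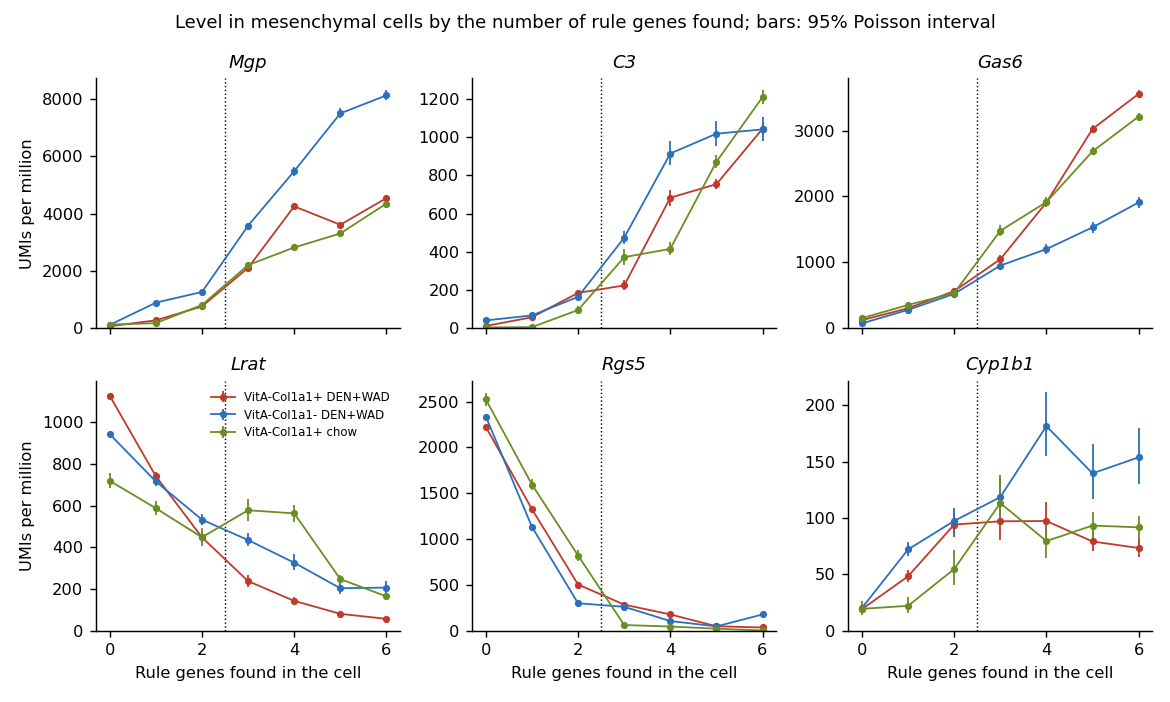
CPM of 6 genes in mesenchymal cells by the number of rule genes found (dotted line, threshold), for the 3 VitA- libraries, with 95% Poisson intervals. Mgp, C3 and Gas6 are higher and Lrat and Rgs5 lower with all 6 rule genes than with none, though not at every step. Lrat in chow rises from 2 to 3 genes, and Rgs5 in VitA-Col1a1- DEN+WAD from 5 to 6. Cyp1b1 is about level from 2 genes on in VitA-Col1a1+ DEN+WAD, but not in the other libraries.

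Marker genes of other cells set the selected cells apart from several types. Of 16 genes listed for portal fibroblasts 13 were measured at the limit in VitA-Col1a1+ DEN+WAD, and 12 were higher and 0 lower, with a median log2 ratio of 2.03. In VitA-Col1a1- DEN+WAD 11 of 13 were higher and 1, Cd248, lower, with a median of 2.53. Gsn, gelsolin, was at 10575 CPM against 1348 and at 5578 against 493.0 in the 2 libraries, and dermatopontin, Dpt, at 2028 against 215.9 and 1572 against 223.8. Eln, elastin, was at 382.9 against 92.4 and 428.8 against 70.2, and the stem cell antigen Ly6a at 1234 against 298.7 and 720.4 against 133.1. The list's most used surface marker, Thy1, did not keep its direction, at 36.0 against 11.8 CPM in VitA-Col1a1+ DEN+WAD, 15.8 against 34.4 in VitA-Col1a1- DEN+WAD and 30.1 against 34.1 in chow. Fbln2, fibulin 2, was higher in all 3 but low, at 20.7, 52.9 and 32.0 CPM, and was found in 94 of 495, 102 of 345 and 91 of 360 selected cells. Dpp4, a marker of adventitial fibroblasts, had 8, 2 and 1 UMIs in the selected cells of the 3 libraries, and Pi16, another, 87, 72 and 2.

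Of 11 smooth muscle genes measured, 4 were 2-fold or more lower in the DEN+WAD library of the VitA-Col1a1+ gate, 6 in that of the VitA-Col1a1- gate and 9 in chow, with median log2 ratios of -0.54, -1.44 and -1.50, and 0 were higher. Acta2, smooth muscle actin, was at 224.7 CPM against 967.4, 372.0 against 2179 and 188.2 against 2776, and Myh11, smooth muscle myosin, at 871.8 in the chow comparison cells against 115.0 in those of VitA-Col1a1+ DEN+WAD. The comparison cells of chow, 105 in number, thus carried more smooth muscle RNA than those of VitA-Col1a1+ DEN+WAD. Of 8 mesothelial genes only Wt1 passed the limit, at 21.6, 56.5 and 19.1 CPM in the selected cells, and 5 of the 8 were at 0 in VitA-Col1a1+ DEN+WAD.

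Markers of endothelial cells, leukocytes and parenchyma were summed in the same way. The 12 endothelial genes, Rspo3 included, summed to 99.4 CPM in the selected cells of VitA-Col1a1+ DEN+WAD and 977.7 in its comparison cells, and to 161.0 and 538.5 in VitA-Col1a1- DEN+WAD. The 10 macrophage genes summed to 26.2 and 6.26 CPM in the first library, nearly all of it lysozyme, Lyz2, at 22.6 CPM, with 4 of the 10 at 0. In the VitA-Col1a1- library they summed to 154.5 in the selected and 145.5 in the comparison cells. The 8 lymphocyte genes summed to 1.57 and 6.72 CPM in the selected cells of the 2 libraries. Of 7 genes for cholangiocytes 3 were at 0 in the selected cells of either library, and they summed to 10.8 and 211.0 CPM. In the second library Spp1 made up 191.7 CPM of that sum, with 643 of its 885 UMIs in 1 cell. The 8 hepatocyte genes summed to 112.9 CPM in the selected cells of VitA-Col1a1+ DEN+WAD, of which Cyp2e1, an enzyme that oxidises ethanol and nitrosamines, made up 102.1, and to 448.0 in VitA-Col1a1- DEN+WAD. Cyp2e1 was found in 40.2% and 44.6% of the selected cells of the 2 DEN+WAD libraries against 2.76% and 5.78% of endothelial cells. Albumin and 5 further hepatocyte genes were lower in the selected than in the comparison cells of VitA-Col1a1- DEN+WAD. The part of such RNA in the other results was not tested.

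Of 16 collagens measured beside the rule's own, 7 were 2-fold or more higher and 0 lower in VitA-Col1a1+ DEN+WAD, with a median log2 ratio of 0.88, 6 and 0 in VitA-Col1a1- DEN+WAD, with a median of 0.89, and 4 and 1 in chow, with a median of 0.41. Col1a1, whose promoter drove the reporter, was at 1711 CPM against 678.2 in VitA-Col1a1+ DEN+WAD. Its level was 3260 against 1689 in the library labelled VitA-Col1a1-, where 99.4% of selected and 90.5% of comparison cells had a UMI of it, as against 10.6% of endothelial cells. The label was taken to name the reporter gate, and the transcript was thus present in cells of the library labelled VitA-Col1a1-. Col6a6 was at 71.9 against 1.30 and 109.4 against 2.32 CPM, and Col6a5, a further collagen VI chain, at 235.4 against 60.0 and 647.6 against 110.4.

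Elastic fibre and basement membrane genes split. Of 18 elastic fibre genes measured in VitA-Col1a1+ DEN+WAD 9 were higher and 1, Efemp1, lower, and of 19 in VitA-Col1a1- DEN+WAD 9 were higher and 0 lower. Fbln5, fibulin 5, was at 1650 against 307.6 and 831.5 against 337.4 CPM, and the cross-linking enzyme Loxl1 at 440.3 against 108.9 and 457.4 against 96.6. Of 23 basement membrane genes 9 were higher and 2 lower in the first library and 7 higher and 5 lower in the second. Smoc2 was at 903.4 against 192.4 and 1037 against 148.3, whereas Lama1 was lower in both. Small leucine-rich proteoglycans other than Fmod and Dcn had 3 of 8 higher and 1 lower in VitA-Col1a1+ DEN+WAD, and 2 of 7 higher in VitA-Col1a1- DEN+WAD. Osteoglycin, Ogn, was at 671.6 against 101.8 and 406.9 against 43.3, and Podn at 332.5 against 114.4 and 208.9 against 36.3.

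Sfrp1 belongs to the Wnt inhibitors, and 49 other Wnt ligands, receptors and inhibitors were listed. Of 21 measured, 8 were higher and 3 lower in VitA-Col1a1+ DEN+WAD and 7 higher and 2 lower in VitA-Col1a1- DEN+WAD. In chow 1 of 25 was higher and 5 were lower. Over all genes 5.64%, 4.94% and 4.83% were higher in the 3 libraries and 3.8%, 3.71% and 4.4% lower. From chow to DEN+WAD in the VitA-Col1a1+ gate, 2 of 24 were higher and 0 lower in the selected cells. In the comparison cells 2 of 22 were higher and 8 lower, so the counts also depend on those cells. The ligand Wnt5a was at 44.9 against 14.7 CPM and 78.6 against 19.4 in the DEN+WAD libraries and at 63.8 against 50.2 in chow. Its receptor Ror2 was at 15.7 against 1.18 and 16.03 against 0.571, and the receptor Fzd2 at 48.4 against 6.54 and 44.4 against 8.27. Rspo1 had 156 and 59 UMIs in the selected cells and 4 and 0 in the comparison cells, while its relative Rspo3 was at 63.0 against 813.3 and 120.9 against 389.3 CPM. Wif1, a further Wnt inhibitor, came from few cells, with 219 UMIs in 12 of 495 selected cells of VitA-Col1a1+ DEN+WAD and none in VitA-Col1a1- DEN+WAD.

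C7 belongs to complement, of which 31 other genes were listed. Of 14 measured in VitA-Col1a1+ DEN+WAD C3 and C4b were higher and Masp1 and Vtn lower, and of 18 in VitA-Col1a1- DEN+WAD C3, C4b and Cd55 were higher and the same pair lower. C4b, which forms the C3 convertase with C2, was at 1182 CPM against 227.7 and 1378 against 171.2, and in chow at 960.2 against 72.1. Masp1, a protease of the lectin pathway, was at 184.0 against 910.2 and 313.1 against 974.0.

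Of 16 leukotriene and prostanoid genes measured in VitA-Col1a1+ DEN+WAD 7 were higher and 2 lower, with a median log2 ratio of 0.66, and of 15 in VitA-Col1a1- DEN+WAD 6 were higher and 0 lower, with a median of 0.79. Ptgs2, the inducible cyclooxygenase, was at 151.4 against 4.40 CPM, 105.9 against 6.68 and, in chow, 148.7 against 2.92. The prostaglandin E synthase Ptges was at 33.4 against 0.564 and 18.2 against 0.331, the prostacyclin synthase Ptgis at 279.7 against 49.6 and 292.5 against 69.5, and the prostaglandin dehydrogenase Hpgd at 136.8 against 15.97 and 69.3 against 8.54. Cyp1b1 was at 81.5 against 19.2 CPM, a ratio of 4.25 (3.75 to 4.83), at 142.8 against 20.3, a ratio of 7.04 (6.32 to 7.86), and in chow at 92.6 against 19.5, a ratio of 4.75 (3.46 to 6.70). The selected cells held 41.6%, 25.1% and 79.6% of the Cyp1b1 UMIs of the 3 libraries and 22.7%, 4.37% and 58.6% of all UMIs. Within the selection, cells with no Lrat UMI had Cyp1b1 at 69.3 (61.9 to 77.3) and 131.2 (110.4 to 154.7) CPM in the 2 DEN+WAD libraries, and cells with Lrat and Fbln2 but no Thy1, 40 and 53 in number, at 97.4 (79.3 to 118.3) and 158.5 (132.7 to 187.9). The leukotriene B4 receptors were hardly seen, Ltb4r2 with 2 and 1 UMIs and Ltb4r1 with 8 and 2 over the selected cells, and Alox5, the first enzyme of leukotriene synthesis, with 0, so that expression was not detectable at this depth.

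A list of 8 genes joined tumour promoters that the study named, Gas6 and Mmp2 among them, with the desaturases Scd1 and Scd2 and other genes. Of the 8, all measured, Gas6, Mmp2 and Mmp23 were higher in both DEN+WAD libraries and none lower. The other 5 were within 2-fold in both. Over all genes 5.64% were higher in VitA-Col1a1+ DEN+WAD and 4.94% in VitA-Col1a1- DEN+WAD. The study named Gas6 and Mmp2 from these samples, so they are no independent evidence of a direction. Mmp2 was at 305.9 against 116.3 and 326.1 against 104.1 CPM, and Mmp23 at 266.1 against 96.2 and 222.5 against 90.7. Among 26 matrix proteases and inhibitors 9 and 8 of 19 measured were higher and 0 lower. Mmp3, stromelysin 1, was at 128.2 against 5.02 and 152.1 against 5.35 CPM, but in few cells: 72 of 495 and 60 of 345 had a UMI, and 10 cells held 70.7% and 65.2% of the total.

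Over all genes 5.64%, 4.94% and 4.83% were higher in VitA-Col1a1+ DEN+WAD, VitA-Col1a1- DEN+WAD and chow, and 3.8%, 3.71% and 4.4% lower. Growth factor genes in chow had 6 of 26 higher and 4 lower. In VitA-Col1a1+ DEN+WAD 9 of 27 were higher and 1, Hgf, lower, and in VitA-Col1a1- DEN+WAD 12 of 27 were higher and 2 lower. Igf1 was at 163.4 against 34.2 and 271.0 against 34.8 CPM, Igfbp4, which binds it, at 2287 against 458.5 and 1301 against 151.4, and the lymphangiogenic factor Vegfd at 357.3 against 22.8 and 213.6 against 31.2. TGF-beta and BMP genes went both ways, with 8 of 29 higher and 6 lower and 3 of 28 higher and 6 lower. Gdf10 was at 504.6 against 121.5 and 163.8 against 37.0 CPM, while Bmp2 was at 54.6 against 173.3 and 44.8 against 148.6, and Bmp5 at 101.7 against 398.4 and 119.6 against 267.4. Of 26 chemokine and cytokine genes 19 were measured in chow, 8 higher, Cxcl10, Cxcl12 and Cxcl14 among them, and 1 lower. Cxcl10 in chow had 672 of its 865 UMIs in 1 cell. In VitA-Col1a1+ DEN+WAD 19 were measured, 4 higher and 6 lower, with Cxcl10 and Cxcl14 among the lower. In VitA-Col1a1- DEN+WAD 21 were measured, 2 higher and 4 lower. The monocyte attractant Ccl2 was at 63.6 against 491.6 and 189.8 against 613.6, the membrane chemokine Cx3cl1 at 92.9 against 19.3 and 195.2 against 68.6, and Cxcl12 within 2-fold at 4865 against 4017 and 2517 against 1331 CPM.

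Transcription factors of mesenchyme gave 6 of 33 higher and 4 lower in VitA-Col1a1+ DEN+WAD and 7 of 33 higher and 1 lower in VitA-Col1a1- DEN+WAD. Foxc2 was at 49.1 against 9.36 and 27.1 against 8.54 CPM, and Lhx2, needed by stellate cells, at 31.7 against 289.2 and 54.6 against 125.6. Wt1 was at 21.6 against 26.9 CPM in VitA-Col1a1+ DEN+WAD, 56.5 against 6.25 in VitA-Col1a1- DEN+WAD and 19.1 against 6.33 in chow, and so past 2-fold in the last 2. The difference between the libraries was not tested. Of 17 immediate-early and heat shock genes, 4 were lower and 0 higher in VitA-Col1a1+ DEN+WAD and 5 lower and 1, Egr2, higher in VitA-Col1a1- DEN+WAD, with median log2 ratios of -0.21 and -0.05. The heat shock genes Hspa1a, Hspa1b, Hsp90aa1 and Dnajb1 were lower in both. Hspa1a, the inducible HSP70, was at 829.7 against 2914 and 281.2 against 959.6 CPM, and in chow at 242.1 against 1187. No gene of the cycling and RNA quality list passed 2-fold in either DEN+WAD library. Among 13 genes known to vary between zones in stellate cells 5 were higher and 6 lower in the first library and 4 and 5 in the second.

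Between the 2 DEN+WAD gates, 175 of 8667 genes (2.02%) were 2-fold or more higher and 182 (2.1%) lower in the selected cells of VitA-Col1a1+ than of VitA-Col1a1-. The gate, the library and the Cell Ranger version cannot be told apart here. The labels also name more than 1 version of the library kit, and which library used which is not clear, between gates or between diets. Tnnt2 was 15.3-fold (12.6 to 18.7) and Penk 9.78-fold (7.58 to 12.8) higher in the VitA-Col1a1+ gate, and Gdf10 3.08-fold (2.85 to 3.33). Ltbp2, a binding protein of latent TGF-beta, was 5.13-fold (4.53 to 5.83) and Lrat 3.25-fold (2.998 to 3.52) higher in the VitA-Col1a1- gate. Gstp1, which has processed copies, was at 130.8 CPM in the first and 5.42 in the second, with a like gap in the comparison cells (117.5 against 5.62).

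Selected cells of DEN+WAD and chow livers in the VitA-Col1a1+ gate differed in few genes. Of 8575 genes 51 (0.595%) were 2-fold or more higher and 63 (0.735%) lower in DEN+WAD, with a median log2 ratio of -0.08. The 10 highest included Gm10076, Angptl4, Fcna, H2-Q7, H2-Q6, Gstp1, Rgs5, Reln and Hspa1a. Angptl4, an inhibitor of lipoprotein lipase, was at 123.4 CPM in DEN+WAD and 12.5 in chow, 9.86-fold (8.11 to 12.1), and in the comparison cells at 71.9 and 8.77. H2-Q7, a non-classical MHC class I gene that shares reads with its near copy H2-Q6, was at 243.6 and 45.3, 5.38-fold (4.84 to 5.99), and in the comparison cells at 1048 and 217.8. Hspa1a was at 829.7 and 242.1 CPM, 3.43-fold (3.27 to 3.59), and in the comparison cells at 2914 and 1187. These 3 genes were thus higher in DEN+WAD in both classes of cell.

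Fcna, Rgs5 and Reln are stellate genes whose level in the selected cells was low, at 52.3, 88.5 and 63.3 CPM in DEN+WAD and 6.14, 22.1 and 14.8 in chow. Rgs5 was found in 28.7% of selected and 29.0% of endothelial cells in DEN+WAD and in 13.3% and 14.3% in chow, and Reln in 24.6% and 18.7%, then 4.17% and 2.86%. Fcna was in 25.7% and 16.1%, then 10.3% and 8.57%. The comparison cells were 1076 of 2091 cells without Pecam1 and Ptprc in DEN+WAD and 105 of 596 in chow. The part of free RNA in these 3 differences was not tested, and with 2 or more rule genes asked for, the log2 ratio of Rgs5 was 0.76, within 2-fold.

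The 10 lowest included Gm8797, AY036118, Lars2, Gm9780, Syn3, Gm42418, Hist1h4d, Scd2 and Lrat. Scd2, a stearoyl-CoA desaturase, was at 32.1 CPM in DEN+WAD and 101.7 in chow, 3.17-fold lower (2.80 to 3.601), and in the comparison cells at 54.5 and 86.3, 1.58-fold lower (1.34 to 1.86). Lrat was at 98.0 and 291.5, 2.97-fold lower (2.77 to 3.20), whereas in the comparison cells it was at 1127 and 719.3. With 2 or more rule genes asked for, the log2 ratio of Lrat was -0.85, within 2-fold. Lars2, AY036118 and Gm42418 lie in or next to sequence related to ribosomal RNA, and Gm42418 was at 5380 and 19688 CPM in the selected cells and 5517 and 20038 in the comparison cells. That gap ran through the whole libraries and its part in the other differences was not tested.

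**Figure D4:**
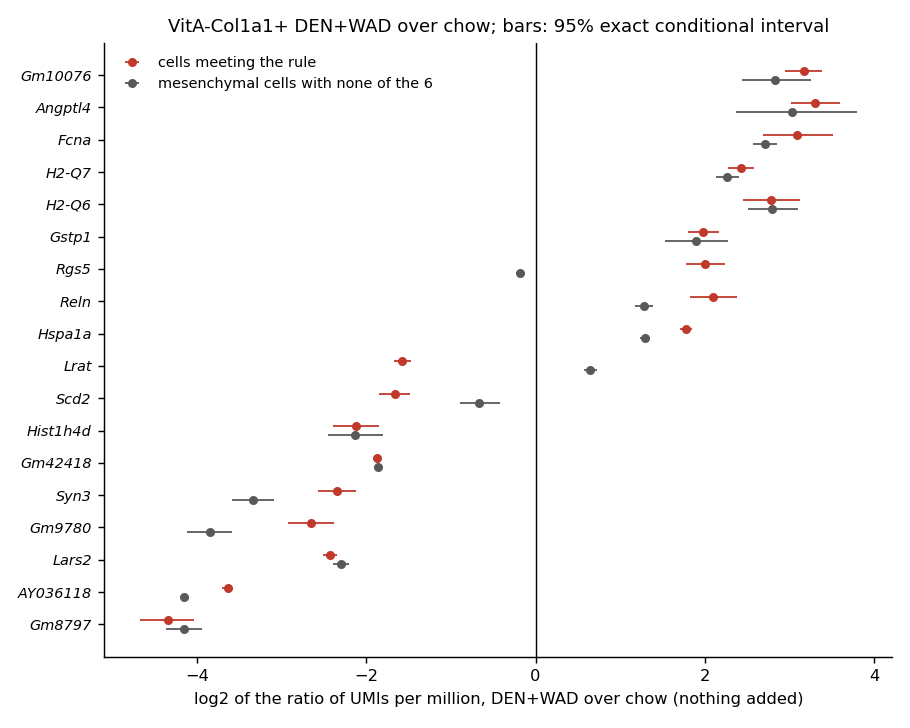
Log2 ratio of CPM in VitA-Col1a1+ DEN+WAD over chow for genes named from the 10 highest and 10 lowest of the selected cells, in those cells (red) and in the comparison cells (grey), with 95% exact intervals and nothing added. For most genes both points lie on the same side, whereas for Rgs5 and Lrat they lie on opposite sides of 0.

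Several genes that were higher in the selected than in the comparison cells were close in level between the diets, though Penk, at 131.4 and 46.8 CPM, was not. Gas6 was at 2859 CPM in DEN+WAD and 2678 in chow, a ratio of 1.07 (1.05 to 1.09), Ptgs2 at 151.4 and 148.7, a ratio of 1.02 (0.947 to 1.10), and Cyp1b1 at 81.5 and 92.6, a ratio of 0.880 (0.799 to 0.969). The Ptgs2 ratio rested on few cells, since 10 cells held 36.1% of its UMIs in DEN+WAD and 50.3% in chow, and 190 of 495 and 106 of 360 cells had any. Portal fibroblast genes had 0 of 13 past 2-fold and complement 0 of 13, which with 0.595% of all genes higher and 0.735% lower is near the background and no result about these lists. Among 16 collagens only Col6a5 was past it, lower in DEN+WAD at 235.4 against 549.7 CPM. Col1a1 was at 1711 in DEN+WAD and 2190 in chow. The stellate list had 5 of 20 higher, Rgs5, Reln, Colec10, Angptl6 and Gdf2, and Lrat lower.

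The selected cells also differed among themselves. Fmo2, Gsn, Dpt and Gas6 were found in 488, 495, 494 and 495 of the 495 cells of VitA-Col1a1+ DEN+WAD, and their 10 highest cells held 5.06 to 6.51% of the UMIs. Other genes, picked after their values were seen, rested on few cells. Cxcl10, an interferon-induced chemokine, was in 111 cells, of which 10 held 79.2% of its 959 UMIs. Myoc, myocilin, was in 87 cells with 71.2% in 10, and Cnmd, chondromodulin, in 20 cells with 92.2% in 10. Dlk1 had 117 of its 119 UMIs and Saa3 170 of its 180 in 1 cell each. Cd74, the invariant chain of MHC class II, was in 30 cells with 89.9% of its 416 UMIs in 10. Postn, periostin, was found in 121 of 345 selected cells of VitA-Col1a1- DEN+WAD, as against 60 of 495 and 32 of 360 in VitA-Col1a1+ DEN+WAD and chow. A mean over such cells describes the few that carried the gene. The part of free RNA in the Postn counts was not tested.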

How the data were processed

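Single-cell RNA was measured in 5 libraries of sorted mouse liver cells, 1 per group. The authors deposited filtered matrices of UMI counts for 31053 genes, made with Cell Ranger (3.1.0 in 4 headers, 6.1.2 in that of VitA-Col1a1-) on mm10. Doublet removal is not given in the sources used here, and no doublet caller was run. Libraries held 2729, 9870, 668, 10481 and 259 barcodes in the order VitA-Col1a1+ DEN+WAD, VitA-Col1a1- DEN+WAD, VitA-Col1a1+ chow, VitA+Col1a1+ DEN+WAD and VitA+Col1a1+ chow, with totals of 47633435, 105670468, 14996899, 149936344 and 6145748 UMIs.

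UMI counts were summed over the cells of a class and scaled CPM. Genes at 10 or more CPM in either class were compared as log2 ratios with 5 CPM added, and folds were taken with nothing added. Intervals (95%, exact Poisson, Clopper-Pearson or conditional binomial) cover counting error only, and no test was possible with 1 library per group. The 35 symbols on 2 rows were not looked up. Named genes were the 15 highest and 15 lowest ratios in VitA-Col1a1+ DEN+WAD, the 10 highest in VitA-Col1a1- DEN+WAD and the 10 highest and 10 lowest of DEN+WAD over chow, at 50 or more CPM in either class and without the genes of the rule, together with members of 26 gene lists. Some genes that these rules took are not reported here. The cells, lists and genes were chosen with earlier results of these data known. Alternatives changed the number of rule genes, depth, comparison cells, exclusions, scaling, the added value and the filter. The calculations were checked on simulated counts. Python 3.11.15, numpy 2.4.6, scipy 1.17.1, pandas 2.3.3 and, for TMM factors alone, edgeR 4.0.16 were used.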

Additional observations from a re-analysis of the deposited data

Results flagged for a closer look

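Cells that met the rule were also seen in a library that entered no comparison. In VitA+Col1a1+ DEN+WAD, gated for vitamin A, 25 of 10309 cells with 2000 UMIs met it (0.243%, Clopper-Pearson 95% interval 0.157 to 0.358%). Their Mgp stood at 2576 CPM against 4.32 in the comparison cells of that library, and Lrat at 506.0 CPM. In VitA+Col1a1+ chow 0 of 255 cells met the rule, and the upper limit on the share is 1.18% at 3 counts or 1.44% by the Clopper-Pearson interval.

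Ccl5, a chemokine of lymphocytes, was picked out because its DEN+WAD over chow ratio had opposite signs in the 2 classes of cell of the VitA-Col1a1+ gate. The log2 ratio was -1.48 in the selected cells and 2.26 in the comparison cells, and the difference was not tested. The selected cells held 8 UMIs in DEN+WAD and 97 in chow, all 97 in 1 cell, and the comparison cells 336 and 0.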

How the results depend on the processing

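No paired analysis was possible because each group had 1 library, and no library could be left out for the same reason. The share of cells meeting the rule in VitA-Col1a1+ DEN+WAD, VitA-Col1a1- DEN+WAD and VitA-Col1a1+ chow was 23.5%, 6.77% and 62.1% with 2 or more of the 6 genes, 17.0%, 2.49% and 50.2% with 4 or more, 17.1%, 2.98% and 49.0% after thinning to 5000 UMIs, and 15.2%, 3.16% and 50.7% when 6 further endothelial and macrophage genes also had to be at 0. The order of the 3 libraries was the same in each.

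At 50 or more CPM, 252 genes were higher and 194 lower in VitA-Col1a1+ DEN+WAD and 208 and 188 in VitA-Col1a1- DEN+WAD, because fewer genes entered (3365 and 3443). The log2 ratio of Lrat in these 2 libraries, -3.46 and -1.55 in the report's comparison, was -2.72 and -1.22 with 2 or more genes, -3.73 and -1.93 with 4 or more, -3.23 and -1.45 against all mesenchymal cells that did not meet the rule, -3.62 and -1.65 as a mean over cells, and -3.42 and -1.42 without cells that had Thy1 or Fbln2. With the 6 further genes at 0 it was -1.68 in VitA-Col1a1- DEN+WAD. The cause of these shifts was not tested. Without the 1 haemoglobin-rich cell, an alternative chosen after seeing the data, Hba-a1 and Hbb-bt turned to log2 ratios of -0.11 and -0.0099.

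All 31 named genes past 2-fold in VitA-Col1a1+ DEN+WAD stayed past it under each alternative run, as did 30 of 35 in VitA-Col1a1- DEN+WAD (not Hhip and the 4 haemoglobin genes) and 18 of 20 between DEN+WAD and chow (not Rgs5 and Lrat). The DEN+WAD against chow counts were 56 higher and 48 lower with TMM factors and 75 and 75 with 2 or more genes. Depth limits the least expressed genes, and the lack of replicates limits every ratio here.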

Other observations

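The following 5 genes, picked after their values were seen and standing for no list, were lower in DEN+WAD than in chow in the selected cells of the VitA-Col1a1+ gate. Srebf2, a transcription factor of sterol synthesis, was at 27.4 CPM in DEN+WAD and 62.6 in chow. Hmgcs1, which makes HMG-CoA, was at 20.1 and 48.8, and Insig1, which holds that synthesis in check, at 17.9 and 48.7. Idi1, the isopentenyl diphosphate isomerase, was at 6.01 and 35.8, and Cyp51, a sterol demethylase, at 13.0 and 40.2. The log2 ratios of these 5 genes were -1.06, -1.10, -1.23, -1.89 and -1.32, and in the comparison cells -0.97, -0.91, -1.07, -1.03 and -0.62. All of these genes were low, and no test was possible.

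A further 4 genes, 2 of them metallothioneins, chosen in the same way, were higher in DEN+WAD. Cebpd was at 1008 CPM in the selected cells of DEN+WAD and 328.9 in those of chow, Mt1 at 1049 and 439.8, and Mt2 at 162.4 and 57.7. H2-K1, a classical MHC class I heavy chain, was at 1967 and 867.4. The comparison cells had higher values in DEN+WAD as well, with log2 ratios of 1.79, 1.62, 2.22 and 1.64 against 1.60, 1.24, 1.42 and 1.18 in the selected cells.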
